A study of Mus musculus with 21 samples.

Results

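Sp5, Axin2, Nkd1, Dkk1, Notum, Rnf43, Znrf3 and Lgr5 are genes that Wnt signalling switches on in many tissues, and most of them feed back on the pathway. They were chosen by symbol as a set of Wnt target and feedback genes, and all 8 were found among the 31053 gene identifiers counted in 21 mRNA sequencing libraries. The libraries came from E14Tg2a, a line of male mouse embryonic stem cells of 129 background that carries a short-lived green fluorescent protein (GFPd2) at 1 Rex1 allele. The cells were sampled at zero passage and after 1 and 2 months in different media, in a study of protocols that maintain pluripotency. The labels gave 7 groups of 3 libraries: 2i+LIF PO, 2i+LIF LP, CH+LIF LP, LIF LP, 2i+LIF HP, CH+LIF HP and LIF HP. LIF, a cytokine, acts through STAT3. CH is CHIR99021, an inhibitor of the kinase GSK3, and 2i usually means CHIR99021 together with PD0325901, an inhibitor of the kinase MEK. All groups shared one culture history in the labels: 1 week with 3 uM CHIR99021 and 1 uM PD0325901 in NDiff227, then passages at which the agents were alternately given and withdrawn. Only 2i+LIF had PO libraries, and PO was taken to mean zero passage. Neither LP nor HP was assigned a length of culture. Nothing in the labels says that replicates were separate cultures, so the p-values measure the spread between these libraries, which may be technical.

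In canonical Wnt signalling, a Wnt ligand binds Frizzled and LRP receptors and stops a complex of Axin, APC and GSK3 from destroying beta-catenin, which then enters the nucleus and acts with TCF/LEF factors. Inhibition of GSK3 by CHIR99021 spares beta-catenin without a ligand, which is why the compound is used to support self-renewal of mouse embryonic stem cells. Several targets restrain the pathway that induces them, as Axin2 does inside the cell and Dkk1 and Notum do outside it.

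Gene counts per library ranged from 1132126 to 3783043, with a median of 1763531, and 11312 to 14118 genes had at least 1 count. A pair of libraries stood apart: 39.1% of the gene counts of 2i+LIF PO replicate 1 were mitochondrial (0.21 to 9.84% in the others), and 31.7% of those of 2i+LIF LP replicate 1 came from Gm42418, a locus overlapping ribosomal RNA (1.76 to 10.9% in the others). Dusp6, a target of the MEK-ERK pathway, went against some labels. It had 34.4 and 26.3 CPM (counts-per-million of the library, after scaling by the trimmed mean of M values) in 2i+LIF LP replicates 2 and 3, whose label names 2i, against 0.701 CPM in replicate 1. Its mean was 0.411 CPM in LIF HP, a label without a MEK inhibitor. Groups are therefore called by their labels, and each direction below is one between the libraries so labelled. In such bulk samples, fewer cells of a type and less RNA per cell cannot be told apart. Levels are given in CPM, which do not account for gene length and are not compared between genes.

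Transcripts of Sp5, Axin2, Nkd1 and Dkk1 were highest in 2i+LIF HP, where each of the 3 libraries lay above all 18 others. The same separation held for 1.32% of the 10643 genes that passed a filter on low counts. Notum was instead highest in 2i+LIF PO. Znrf3 did not pass the test in any of the comparisons, and Rnf43 and Lgr5 had too few counts to be tested. A gene passed the filter with at least 5.67 CPM, before scaling, in at least 3 libraries. Nkd1 and Dkk1 reached that level only in the 3 libraries of 2i+LIF HP, so they entered the test through the group in which they were high. The separation of Nkd1 and Dkk1, and counts of genes called that include either of them, are therefore descriptions. Nothing is read from these against the share of all tested genes.

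Sp5 (ENSMUSG00000075304, chromosome 2, 70474923 to 70477729; positions are in GRCm38) encodes a zinc-finger transcription factor of the Sp family. In replicates 1, 2 and 3 it had 135, 494 and 455 CPM in 2i+LIF HP. It had 46.7, 33.4 and 17.5 CPM in CH+LIF HP and 19.6, 30.2 and 23.7 CPM in LIF HP. In 2i+LIF LP it had 62.4, 18.5 and 8.39 CPM, and in 2i+LIF PO 32.2, 2.35 and 11.5 CPM. Almost no Sp5 was counted in the other groups: 0.969, 0.605 and 1.52 CPM in CH+LIF LP, and 1.10 CPM in replicate 1 of LIF LP with no count in replicates 2 and 3. Within each medium, the 3 HP libraries thus lay above the 3 LP libraries. That separation is a description and was not set against the share of all tested genes. In CH+LIF the difference did not pass the test (edgeR adjusted p = 0.0671).

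Compared with 2i+LIF HP (361 ± 197 CPM, SD, n = 3), Sp5 fell in CH+LIF HP by 3.46 on the log2 scale (SE 0.68, edgeR adjusted p = 0.00494) and in LIF HP by 3.88 (SE 0.70, edgeR adjusted p = 0.00174). Sp5 in 2i+LIF HP exceeded that of 2i+LIF LP by 3.62 (SE 0.69, edgeR adjusted p = 0.00261). This difference was 4.74 without 2i+LIF LP replicate 1, and a fit of only these groups lost the call (3.53, adjusted p = 0.0826). That difference was 2.50 (SE 0.86, edgeR adjusted p = 0.0476) when the 2i+LIF LP libraries with high Dusp6 were left out, which leaves replicate 1 of that group, the library with 31.7% Gm42418 (9.62% of tested genes called higher in that fit). From LIF LP, with 2 counts in all, to LIF HP the ratio was 65.5-fold, with an exact counting interval of 17.7 to 548 (edgeR adjusted p = 0.00176). Both counts were in LIF LP replicate 1, and without that library the difference was at least 29.0-fold. Without LIF LP replicate 3 it was 40.3-fold. LIF LP was also below 2i+LIF LP, by a ratio of 71.7 with an interval from 19.5 to 598 (edgeR adjusted p = 0.00494), a call lost without LIF LP replicate 2 (adjusted p = 0.0596) or replicate 3 (adjusted p = 0.0538, ratio 44.1). Without 2i+LIF LP replicate 1 the ratio was 38.1, and without LIF LP replicate 1 it was at least 31.7. CH+LIF LP lay 4.79 below 2i+LIF LP on the log2 scale (edgeR adjusted p = 0.139), without overlap, as 5.94% of tested genes did. Against replicate 1 alone, with the 2i+LIF LP libraries with high Dusp6 left out, it was 5.91 below (SE 0.92, edgeR adjusted p = 0.00036), in a fit where 8.32% of tested genes were called lower. CH+LIF HP lay 4.94 above CH+LIF LP (SE 0.95, edgeR adjusted p = 0.0671), also without overlap.

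Axin2 (ENSMUSG00000000142, chromosome 11, 108920349 to 108950783, overlapping Gm11670 on the other strand) encodes a scaffold of the complex that destroys beta-catenin. In replicates 1, 2 and 3 it had 48.8, 73.6 and 53.7 CPM in 2i+LIF HP, against 6.49, 4.77 and 5.33 CPM in CH+LIF HP and 12.4, 8.62 and 6.18 CPM in LIF HP. Values in 2i+LIF LP spread widely, at 28.8, 14.2 and 1.68 CPM, and those in CH+LIF LP were 0, 4.84 and 10.6 CPM. LIF LP was lowest, with 0, 1.33 and 0.962 CPM, and 2i+LIF PO had 14.8, 5.23 and 9.47 CPM. The strand setting of the counting is not given in the sources used here, so reads of Axin2 and Gm11670 cannot be told apart where they overlap.

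Axin2 fell by 3.40 on the log2 scale in CH+LIF HP compared with 2i+LIF HP (SE 0.76, edgeR adjusted p = 0.0137). This call was lost without 2i+LIF HP replicate 2 (adjusted p = 0.0652) or without CH+LIF HP replicate 1, 2 or 3 (adjusted p = 0.0577, 0.106 and 0.0787). In LIF HP it fell by 2.65 (SE 0.73, edgeR adjusted p = 0.0399), and leaving out any 1 of the 6 libraries compared ended the call, with adjusted p from 0.0586 to 0.155. LIF HP was above LIF LP by 3.53 (SE 1.01, edgeR adjusted p = 0.0274), again lost without any 1 of the 6 libraries compared, with adjusted p from 0.0532 to 0.130. LIF LP was below 2i+LIF LP by 4.19 (SE 0.98, edgeR adjusted p = 0.0480), which was lost in 16 of the 21 fits without 1 library, with adjusted p up to 0.209 and a difference of -3.34 without 2i+LIF LP replicate 1. 2i+LIF HP lay above 2i+LIF LP by 2.00 (SE 0.70, edgeR adjusted p = 0.117) without overlap. Without 2i+LIF LP replicate 1, whose 28.8 CPM is the highest of its group, that difference was 2.85 and passed the test (edgeR adjusted p = 0.0280).

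**Figure D1:**
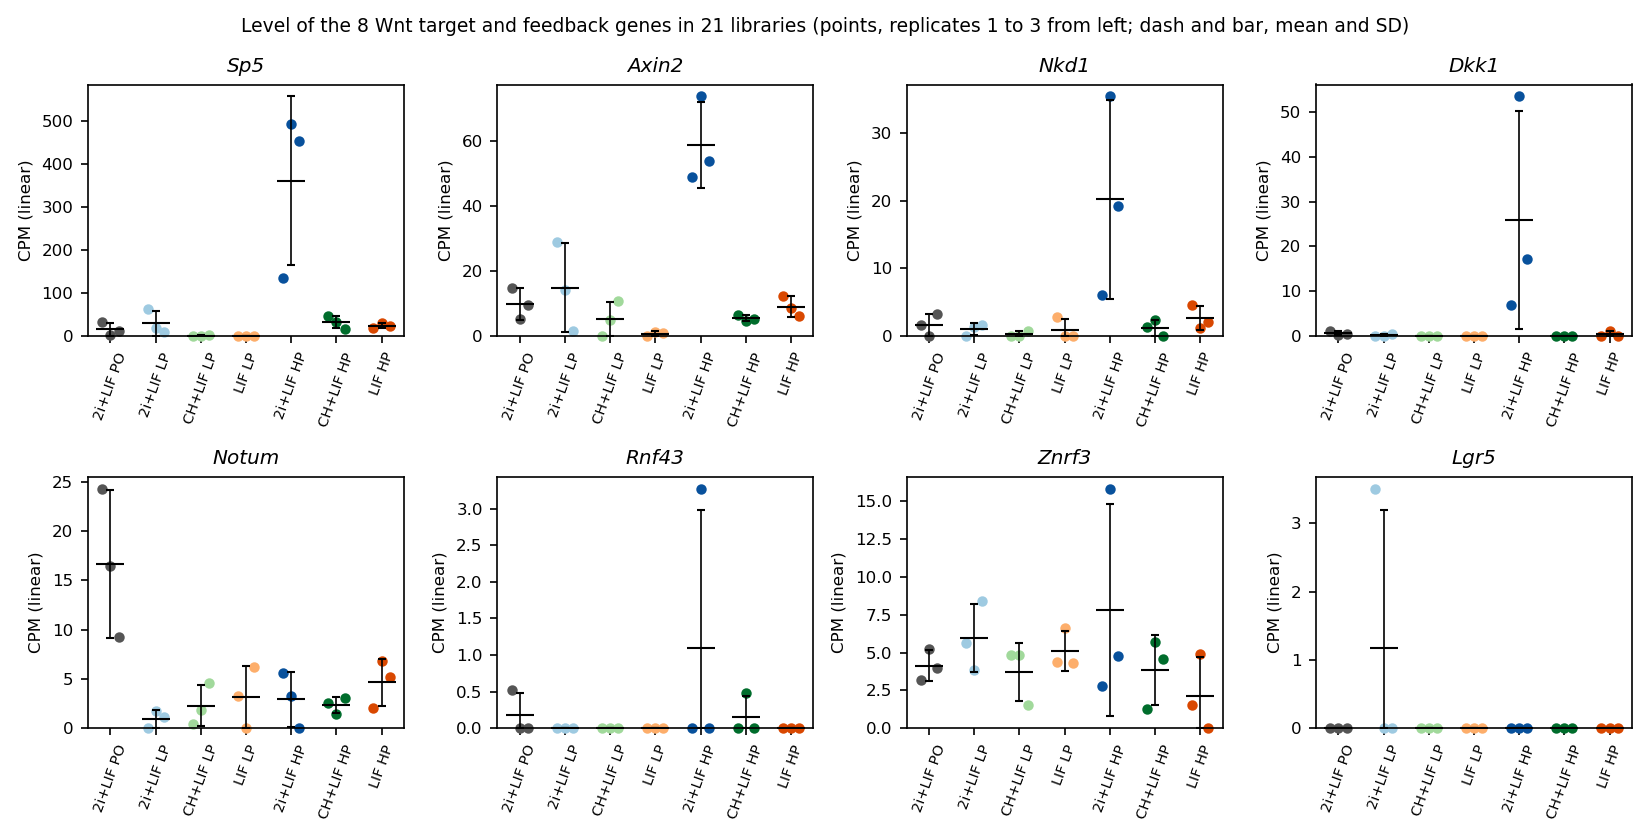
Level of each of the 8 genes in the 21 libraries, in CPM on linear axes, by group. Points are replicates 1 to 3 from left to right, and dashes with bars are the mean and SD. Sp5, Axin2, Nkd1 and Dkk1 peak in 2i+LIF HP, and Notum peaks in 2i+LIF PO.

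Nkd1 (ENSMUSG00000031661, chromosome 8, 88521354 to 88594884) encodes naked cuticle 1, which binds Dishevelled and dampens the signal in the cytoplasm. It had 6.04, 35.4 and 19.2 CPM in replicates 1, 2 and 3 of 2i+LIF HP. Elsewhere it had 4.64 CPM or less, the highest of these values being in LIF HP replicate 1, and 7 of the 18 libraries had no count. Nkd1 rose from 2i+LIF LP to 2i+LIF HP by 4.18 on the log2 scale (SE 1.13, edgeR adjusted p = 0.0352). The call was lost without 2i+LIF HP replicate 2 (3.48, adjusted p = 0.211) or replicate 3 (adjusted p = 0.0900), and without 2i+LIF LP replicate 1, 2 or 3 (adjusted p = 0.0815, 0.0937 and 0.0676). CH+LIF HP and LIF HP lay below 2i+LIF HP by 3.85 (SE 1.11, edgeR adjusted p = 0.0750) and 2.85 (SE 1.04, edgeR adjusted p = 0.121), neither overlapping it. In the first of these comparisons Nkd1 was called by DESeq2 (adjusted p = 0.0480, with 1.4% of the genes it tested called lower) and limma-voom (adjusted p = 0.0167, with 2.56%). In the second it was called by limma-voom (adjusted p = 0.0488, with 3.86%). As Nkd1 passed the filter only through 2i+LIF HP, nothing is read from these calls against those shares.

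Dkk1 (ENSMUSG00000024868, chromosome 19, 30545863 to 30549665) encodes a secreted inhibitor that binds the co-receptors LRP5 and LRP6. It had 6.97, 53.4 and 17.3 CPM in 2i+LIF HP, from 131 counts. No count was found in CH+LIF LP, LIF LP or CH+LIF HP. There were 2 counts in LIF HP, 1 in 2i+LIF LP and 5 in 2i+LIF PO, where replicates 1, 2 and 3 had 1.06, 0.261 and 0.499 CPM. With 3 counts over the group allowed where none was seen, Dkk1 was at least 43.0-fold lower in CH+LIF HP relative to 2i+LIF HP (edgeR adjusted p = 0.00307). Without 1 of the 6 libraries compared the bound ran from 17.0 (2i+LIF HP replicate 2 left out) to 66.5 (2i+LIF HP replicate 1 left out). It was 59.1-fold lower in LIF HP, with a counting interval of 16.0 to 493 (edgeR adjusted p = 0.00792). From 2i+LIF LP to 2i+LIF HP it was 144.2-fold higher, with an interval from 25.4 to 5739 (edgeR adjusted p = 0.00326). Without 2i+LIF HP replicate 2, which had the highest level, both of the last calls were lost (adjusted p = 0.0838 and 0.0593) and the ratios were 23.4 and 57.2. Leaving out LIF HP replicate 2 or 2i+LIF LP replicate 3, which hold the counts of those groups, gave bounds of at least 25.3-fold and 32.5-fold. Such intervals cover counting error only, as reads without molecular identifiers are not independent molecules.

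Promoters of Sp5, Dkk1 and Axin2, which were among the genes high together, are shown because TCF/LEF factors bind DNA of the form CTTTGAT or a near variant. RefSeq (GRCm38.p6) gave windows for Sp5, Axin2, Nkd1, Dkk1 and Rnf43 (5 of the 8 genes), and the 250 bases before the start were searched on both strands for CTTTGAT, for its variant CTTTGTT and for its variant CTTTGAA. The windows of Sp5 (chr2:70474673-70474922, plus strand), Dkk1 (chr19:30549497-30549746, minus strand) and Axin2 (chr11:108920099-108920348, plus strand) are printed 5′ to 3′ on the gene's strand, with matches in capitals.
Sp5: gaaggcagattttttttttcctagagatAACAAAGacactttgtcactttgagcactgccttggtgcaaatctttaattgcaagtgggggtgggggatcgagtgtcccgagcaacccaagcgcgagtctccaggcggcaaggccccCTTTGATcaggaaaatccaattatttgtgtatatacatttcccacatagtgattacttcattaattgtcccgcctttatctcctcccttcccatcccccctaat
Dkk1: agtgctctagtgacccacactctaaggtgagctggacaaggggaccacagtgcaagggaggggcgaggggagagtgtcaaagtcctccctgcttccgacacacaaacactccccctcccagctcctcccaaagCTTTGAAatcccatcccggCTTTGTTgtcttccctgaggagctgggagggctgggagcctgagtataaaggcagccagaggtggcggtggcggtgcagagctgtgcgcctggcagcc
Axin2: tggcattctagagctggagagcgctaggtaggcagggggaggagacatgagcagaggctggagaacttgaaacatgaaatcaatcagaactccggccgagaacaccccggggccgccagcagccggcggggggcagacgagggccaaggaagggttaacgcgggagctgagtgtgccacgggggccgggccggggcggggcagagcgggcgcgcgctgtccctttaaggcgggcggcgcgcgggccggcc
Sp5 held CTTTGAT at -104 to -98 from the start and CTTTGTT on the opposite strand (read as AACAAAG above) at -222 to -216. Dkk1 held CTTTGAA at -117 to -111 and CTTTGTT at -98 to -92. These letters did not occur in the windows of Axin2, Nkd1 and Rnf43. The windows lie before RefSeq starts, which for Nkd1 (88527633), Rnf43 (87663087 and 87699897) and Dkk1 (30549496) fall inside the gene as placed here by GENCODE. The sequence before the outer starts of Nkd1 and Rnf43 was not searched. Of 32851 windows of this length, 3.21% held CTTTGAT, 5.03% CTTTGTT, 4.46% CTTTGAA and 12.0% any of these, and 0.998% held 2 or more matches. The 3 motifs cannot overlap one another on the same strand. A match is a description of sequence and was not tied to binding.

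Notum (ENSMUSG00000042988, chromosome 11, 120653788 to 120661175, overlapping Notumos and Myadml2os on the other strand) encodes a secreted enzyme that removes the lipid from Wnt ligands and so inactivates them. It had 24.3, 16.5 and 9.22 CPM in replicates 1, 2 and 3 of 2i+LIF PO and 6.77 CPM or less in the 18 other libraries. All 3 PO libraries therefore lay above every other library, a description for which the share of tested genes that did so is not given. Notum fell in 2i+LIF LP compared with PO by 3.91 on the log2 scale (SE 0.98, edgeR adjusted p = 0.0214), a call lost without PO replicate 2 (adjusted p = 0.0580) or 2i+LIF LP replicate 3 (adjusted p = 0.0619). The difference was -4.62 without 2i+LIF LP replicate 2. In CH+LIF LP it fell by 2.91 (SE 0.92, edgeR adjusted p = 0.0473), and this call was lost in 15 of the 21 fits without 1 library, with adjusted p up to 0.199 and a difference of -3.82 without CH+LIF LP replicate 3. The differences from PO in LIF LP, 2i+LIF HP, CH+LIF HP and LIF HP were -2.30, -2.33, -2.81 and -1.84 (edgeR adjusted p = 0.0802, 0.0829, 0.0636 and 0.153). The 3 PO libraries carry a different run name in their files from the 18 others, so run and PO cannot be told apart in any comparison with PO.

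Znrf3 (ENSMUSG00000041961, chromosome 11, 5276324 to 5444847) and Rnf43 (ENSMUSG00000034177, chromosome 11, 87662722 to 87735539) encode membrane ubiquitin ligases that remove Frizzled receptors from the cell surface. Lgr5 (ENSMUSG00000020140, chromosome 10, 115450311 to 115587780, overlapping A930009A15Rik on the other strand) encodes a receptor for R-spondins, which block these ligases. Znrf3 was counted in 20 of 21 libraries, with group means from 2.16 CPM in LIF HP to 7.80 CPM in 2i+LIF HP. In 2i+LIF HP it had 2.79, 15.8 and 4.79 CPM, and in LIF HP 1.55, 4.93 and 0 CPM, so the ranges overlapped (LIF HP minus 2i+LIF HP, -1.73, SE 0.82, edgeR adjusted p = 0.242). Rnf43 had 8 counts in all libraries together, 6 of them in 2i+LIF HP replicate 2 (3.27 CPM). Lgr5 had 5 counts, all in 2i+LIF LP replicate 1 (3.51 CPM), the library with the large share of Gm42418. Neither gene was tested between groups, since neither passed the filter.

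**Figure D2:**
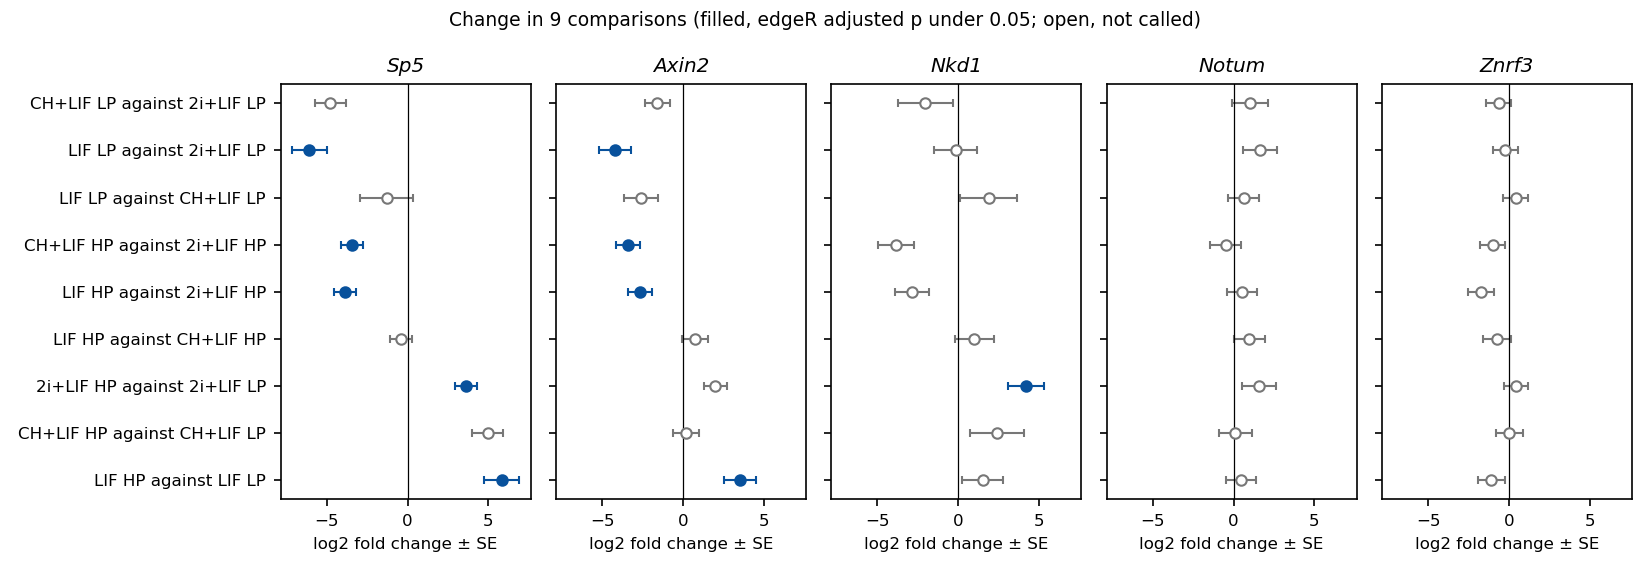
Log2 fold change from edgeR, with bars of 1 SE, of Sp5, Axin2, Nkd1, Notum and Znrf3 in the 9 comparisons of media and of HP with LP. Filled points had an adjusted p under 0.05 and open points did not. Sp5 and Axin2 are filled and below 0 in both comparisons with 2i+LIF HP, and no point of Notum or Znrf3 is filled. Dkk1 is left out because groups without counts give no usable SE.

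Between media at HP, Sp5, Axin2 and Dkk1 fell in CH+LIF HP compared with 2i+LIF HP, where 0.921% of all tested genes were called lower. The same 3 genes fell in LIF HP, where 1.68% were called lower. Dkk1 passed the filter only through 2i+LIF HP, which leaves Sp5 and Axin2 of the 4 genes that passed otherwise. These comparisons share the 2i+LIF HP libraries. Between LIF HP and CH+LIF HP none of the 8 genes was called by edgeR (1.47% of tested genes called), DESeq2 (3.84%) or limma-voom (13.3%), and none had an unadjusted edgeR p under 0.05. Between media at LP, 2 genes (Sp5 and Axin2) fell in LIF LP compared with 2i+LIF LP, where 0.376% of tested genes were called lower. For CH+LIF LP compared with 2i+LIF LP edgeR called 0 of them (0% of tested genes called), where 1 had an unadjusted p under 0.05, DESeq2 called 1 (0.199% of the genes it tested) and limma-voom 0 (0.0188%). In LIF LP against CH+LIF LP edgeR called 0 (0.047% of tested genes), with 1 gene at an unadjusted p under 0.05 and none called by DESeq2 (0.13%) or limma-voom (0.395%).

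From LP to HP, Sp5, Nkd1 and Dkk1 rose in 2i+LIF (1.63% of tested genes called higher), of which Nkd1 and Dkk1 passed the filter only through 2i+LIF HP. In LIF 2 genes rose (Sp5 and Axin2; 5.33% called higher). In CH+LIF edgeR called 0 of them (0.0094% of tested genes), with 1, Sp5, at an unadjusted p under 0.05 and also called by DESeq2 (0.174% of the genes it tested) and by limma-voom (0.62%). Whether the change from LP to HP differed between media was tested by interaction terms. None of the 8 genes was called in the 3 of them by edgeR (0.0188%, 0.15% and 0.423% of tested genes called), by DESeq2 (0.248%, 1.52% and 1.36%) or by limma-voom (0.169%, 1.5% and 8.59%). At an unadjusted p under 0.05 there was 1, Axin2, whose change in LIF exceeded that in CH+LIF by 3.34 (SE 1.34, edgeR adjusted p = 0.330). For Sp5 the change in LIF exceeded that in 2i+LIF by 2.19 (edgeR adjusted p = 0.581).

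Against 2i+LIF PO, Sp5, Axin2, Nkd1 and Dkk1 rose in 2i+LIF HP, where 5.8% of tested genes were called higher, and Nkd1 and Dkk1 again passed the filter only through 2i+LIF HP. Sp5 rose by 4.62 (SE 0.72, edgeR adjusted p = 0.000207) and Dkk1 by 5.42 (SE 1.03, edgeR adjusted p = 0.00235). Without PO replicate 1 the Sp5 difference was 5.68, and without 2i+LIF HP replicate 2 that of Dkk1 was 4.29, both still called (edgeR adjusted p = 6.4e-05 and 0.0367). Axin2 rose by 2.60 (SE 0.71, edgeR adjusted p = 0.0190), lost without PO replicate 2 or 3 or 2i+LIF HP replicate 2 or 3 (adjusted p = 0.0766, 0.0604, 0.0617 and 0.0567). Nkd1 rose by 3.59 (SE 1.03, edgeR adjusted p = 0.0264), lost without PO replicate 1 or 2 or 2i+LIF HP replicate 2 or 3 (adjusted p = 0.0511, 0.0944, 0.143 and 0.0857). Its difference was 4.90 without PO replicate 3 and 2.88 without 2i+LIF HP replicate 2. In LIF LP, Sp5 was lower by a ratio of 32.2 with an interval from 8.71 to 269 (edgeR adjusted p = 0.00404), and by 19.0 without PO replicate 1, 19.8 without LIF LP replicate 3 and at least 14.2 without LIF LP replicate 1. Axin2 fell by 3.58 there (SE 0.99, edgeR adjusted p = 0.0189; 6.11% of tested genes called lower), lost without LIF LP replicate 1, 2 or 3 (adjusted p = 0.0840, 0.0513 and 0.0596). In CH+LIF LP, Sp5 fell by 3.79 (SE 0.97, edgeR adjusted p = 0.0168; 4.07% called lower), lost without PO replicate 1 or CH+LIF LP replicate 1 or 2 (adjusted p = 0.0868, 0.0804 and 0.0760), and the difference was -2.74 without PO replicate 1.

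Notum was the 1 gene called in 2i+LIF LP against PO (2.27% of tested genes called lower). With the 2i+LIF LP libraries with high Dusp6 left out, Sp5 was also called, higher by 2.14 (SE 0.72, edgeR adjusted p = 0.0425) in replicate 1, the remaining library, where 5.33% of tested genes were called higher. In CH+LIF HP and LIF HP against PO, edgeR called none (5.82% and 12.3% of tested genes called), with 1 gene in each, Notum, at an unadjusted p under 0.05. DESeq2 called 1 and 0 of the 8 genes there (8.34% and 15.2% of the genes it tested), and limma-voom 2 and 1 (26.8% and 24.7%). Without the pair of libraries that stood apart, Sp5 was above PO in CH+LIF HP by 2.21 (edgeR adjusted p = 0.00944; 6.2% of tested genes called higher) and in LIF HP by 1.79 (edgeR adjusted p = 0.0328; 7.59% called higher).

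For each of the 6 genes that passed the filter, the groups were ordered by mean level. The order comes from the same values as the tests, so the count of neighbours called is a description. Of 36 neighbouring pairs, 3 had an edgeR adjusted p under 0.05: Sp5 in 2i+LIF HP above CH+LIF HP, Sp5 in 2i+LIF PO above CH+LIF LP, and Dkk1 in 2i+LIF HP above 2i+LIF PO. Dkk1 passed the filter only through 2i+LIF HP, and its pairs of groups without counts could not be called. Sp5 ran from 2i+LIF HP through CH+LIF HP (32.5 ± 14.6 CPM, SD, n = 3), 2i+LIF LP (29.8 ± 28.7), LIF HP (24.5 ± 5.34), 2i+LIF PO (15.3 ± 15.3) and CH+LIF LP (1.03 ± 0.46) to LIF LP (0.367 ± 0.636). Axin2 ran from 2i+LIF HP (58.7 ± 13.1) through 2i+LIF LP (14.9 ± 13.5), 2i+LIF PO (9.82 ± 4.78), LIF HP (9.06 ± 3.12), CH+LIF HP (5.53 ± 0.876) and CH+LIF LP (5.16 ± 5.32) to LIF LP (0.763 ± 0.686). Both genes thus had their highest mean in 2i+LIF HP and their lowest in LIF LP.

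**Figure D3:**
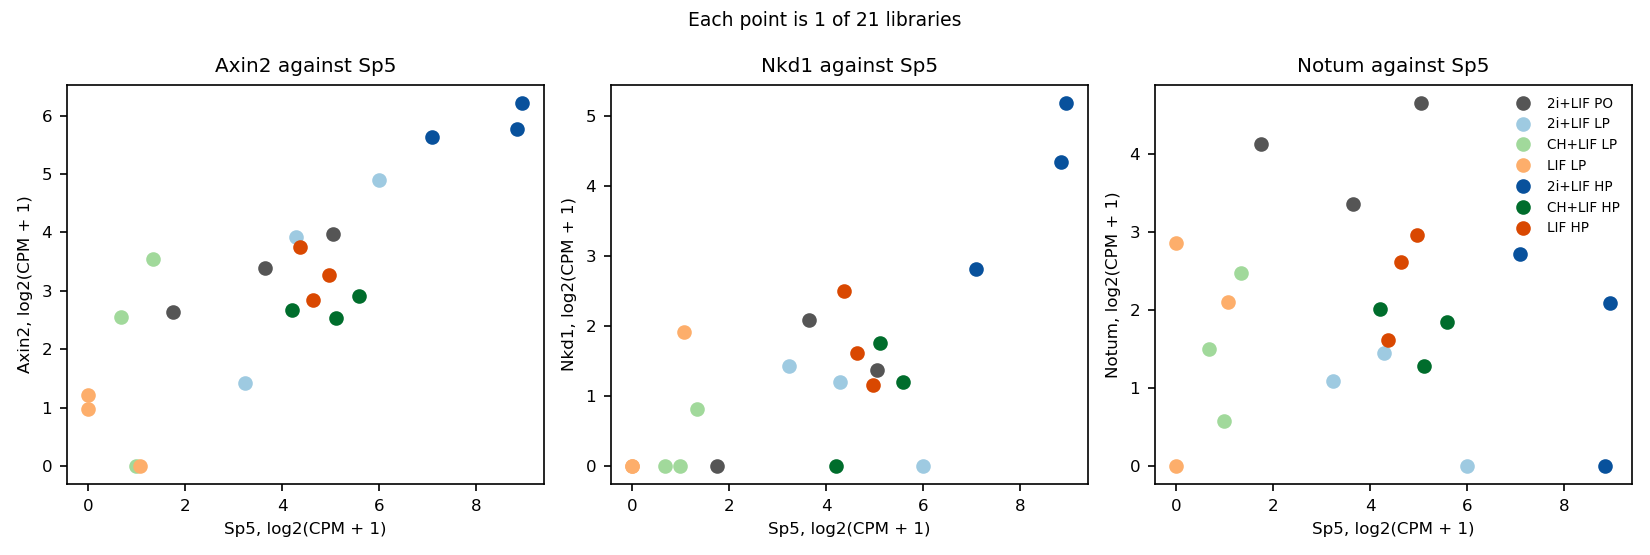
Levels of Axin2, Nkd1 and Notum (vertical axes) against Sp5 (horizontal axis) as log2(CPM + 1), with each point 1 of the 21 libraries, coloured by group. The 3 libraries of 2i+LIF HP lie at the upper right for Axin2 and Nkd1, and Notum does not follow Sp5.

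Across the 21 libraries, which share groups and differ in depth, log2 levels of Sp5 and Axin2 had a Pearson r of 0.843 and a Spearman rho of 0.791. In the 18 libraries outside 2i+LIF HP, r was 0.703. The correlation of Sp5 with Nkd1 was 0.755 (0.444 in the 18 libraries), and with Dkk1 0.725 (0.293). With Notum and Znrf3 it was -0.06 and 0.07. Among all tested genes, Cdo1, an enzyme of cysteine breakdown, was most like Sp5 (r 0.930, rho 0.864, and r 0.856 in the 18 libraries). Epp13 was next (r 0.907, rho 0.900, and r 0.855 in the 18 libraries), and the same pair of genes was also most like Axin2 (r 0.847 and 0.869). Cdo1 had 206 ± 107 CPM (SD, n = 3) in 2i+LIF HP and group means of 2.89 to 30.7 CPM elsewhere. The genes most like Dkk1, Khdc1a and Cyp2c70 (r 0.958 and 0.956), had r of -0.03 and 0.24 with it in the 18 libraries. For Notum the most alike was Cs, the citrate synthase of mitochondria (r 0.865, and 0.851 in the 18 libraries). Those 18 include 2i+LIF PO, where both genes were highest (Cs 125 CPM, with group means of 33.6 to 73.1 CPM elsewhere).

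**Figure D4:**
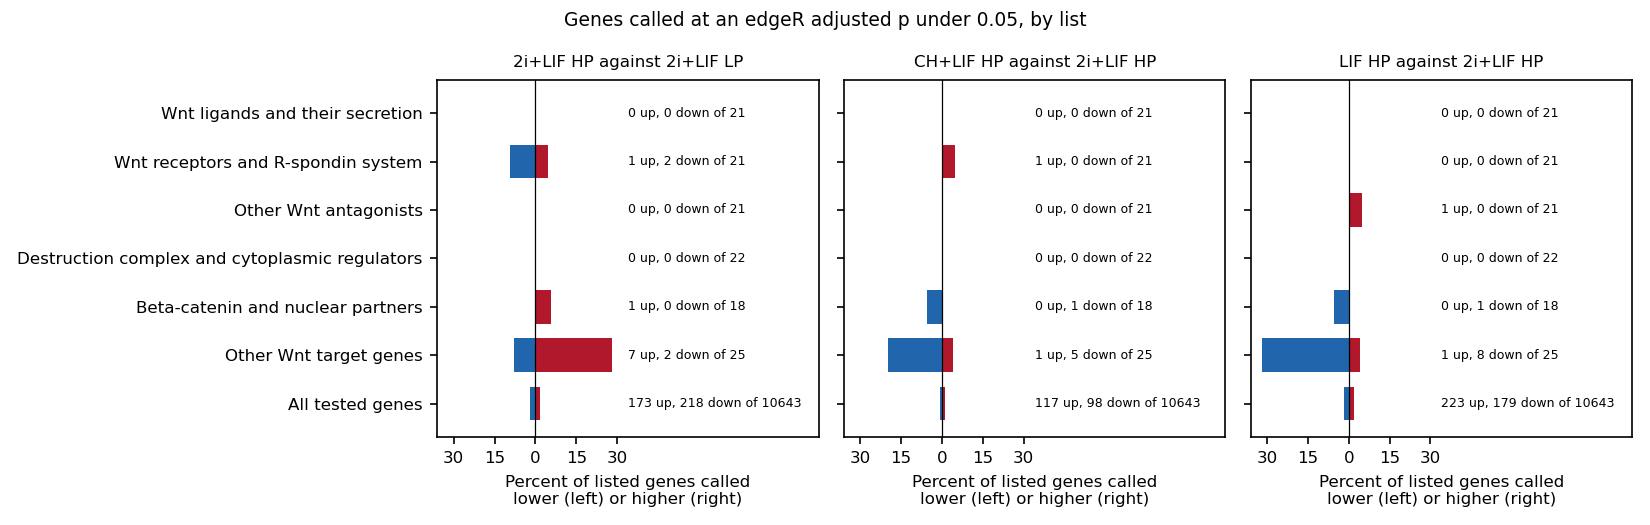
Share of the genes of 6 Wnt pathway lists that were called higher (right) or lower (left) at an edgeR adjusted p of 0.05 in 3 comparisons, with all tested genes as the lowest bar. Shares of the lists are of all listed genes, tested or not, and the share in the lowest bar is of tested genes only. The list of other Wnt target genes has 7 of 25 genes higher in the left panel and 8 of 25 lower in the right panel. T, Cdx2, Lef1 and Msx1 among the first and T, Lef1 and Gad1 among the second passed the filter on low counts through 2i+LIF HP, so nothing is read from these shares.

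The rest of the pathway was followed in 6 lists of 126 distinct genes. Of 25 other Wnt target genes, 16 passed the filter. From 2i+LIF LP to 2i+LIF HP 7 rose (T, Cdx1, Cdx2, Lef1, Tnfrsf19, Msx1 and Prickle1) and 2 fell (Bmp4 and Tdgf1), where 1.63% of tested genes were called higher and 2.05% lower. T, Cdx2, Msx1, Lef1 and Gad1, which is called below, reached the level of the filter in the 3 libraries of 2i+LIF HP and in at most 1 other library. They entered the test through the group in which they were high, so nothing is read from these counts. T, the mesoderm factor Brachyury, had 22.4 ± 12.4 CPM (SD, n = 3) against 1.00 ± 1.74 CPM (log2 difference 4.21, SE 1.03, edgeR adjusted p = 0.0235). Lef1, a nuclear partner of beta-catenin, had 35.0 ± 13.3 against 2.64 ± 0.895 CPM (3.68, SE 0.99, edgeR adjusted p = 0.0351). Tdgf1, the Nodal co-receptor Cripto, went the other way, with 36.5 ± 27.7 against 391 ± 44.3 CPM (-3.41, SE 0.45, edgeR adjusted p = 8.7e-05). In CH+LIF HP compared with 2i+LIF HP 5 of the list fell (T, Cdx2, Tnfrsf19, Gbx2 and Msx1; 0.921% of tested genes lower) and Tdgf1 rose (1.1% higher). In LIF HP compared with 2i+LIF HP 8 fell (T, Lef1, Ccnd1, Tnfrsf19, Gad1, Id2, Fst and Prickle1, with 1.68% lower) and Tdgf1 rose (2.1% higher). Either way, DESeq2 called 8, 9 and 10 of the 16 in these 3 comparisons (5.00%, 2.86% and 6.23% of the genes it tested). Limma-voom called 10, 13 and 12 (4.01%, 4.10% and 9.41%).

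The other parts of the pathway were followed in the same 3 comparisons, where edgeR called 3.67%, 2.02% and 3.78% of all tested genes either way, DESeq2 5.00%, 2.86% and 6.23%, and limma-voom 4.01%, 4.10% and 9.41%. Among 22 genes of the destruction complex and other cytoplasmic regulators, of which 20 passed the filter, none was called by edgeR, DESeq2 or limma-voom, with 2, 0 and 2 at an unadjusted p under 0.05 in the order of the 3 comparisons. Of 21 ligand and secretion genes, of which 4 passed, edgeR called none, with 3, 1 and 3 at an unadjusted p under 0.05, while in LIF HP relative to 2i+LIF HP DESeq2 called 2 and limma-voom 1. Of 18 genes of beta-catenin and its nuclear partners, of which 16 passed, Lef1 was called in 2i+LIF HP relative to 2i+LIF LP, as above, and in LIF HP relative to 2i+LIF HP (-5.23, SE 1.15, edgeR adjusted p = 0.0114). Bcl9l, a co-activator that binds beta-catenin, fell in CH+LIF HP compared with 2i+LIF HP, from 67.1 ± 37.1 to 12.5 ± 1.67 CPM (SD, n = 3; log2 difference -2.43, SE 0.63, edgeR adjusted p = 0.0381). For beta-catenin and its nuclear partners DESeq2 called 2, 3 and 2 genes in the order of the 3 comparisons, and limma-voom 2, 4 and 3. Of 21 receptor genes, of which 13 passed, Ror2 rose and the Frizzled receptors Fzd5 and Fzd7 fell in 2i+LIF HP compared with 2i+LIF LP. Fzd5 had 15.5 ± 6.15 CPM (SD, n = 3) in 2i+LIF HP, 76.2 ± 15.8 in 2i+LIF LP and 60.1 ± 7.05 in CH+LIF HP, so it was higher in CH+LIF HP by 1.91 (SE 0.38, edgeR adjusted p = 0.00494). Of 21 other antagonists, of which 5 passed, 1 rose in LIF HP compared with 2i+LIF HP, Dkkl1 (2.21, SE 0.56, edgeR adjusted p = 0.0265). Against PO, edgeR called 2.79%, 4.24%, 5.84%, 5.8%, 3.36% and 7.1% of tested genes higher in 2i+LIF LP, CH+LIF LP, LIF LP, 2i+LIF HP, CH+LIF HP and LIF HP, and 2.27%, 4.07%, 6.11%, 4.79%, 2.45% and 5.17% lower. Porcn, the acyltransferase that attaches the lipid to Wnt ligands, rose in all 6 groups, from 0.684 CPM to means of 7.60 to 21.1 CPM, and Sfrp1, a secreted antagonist, fell in all 6, from 536.7 ± 17.3 CPM (SD, n = 3) to means of 129 to 244 CPM. In 2i+LIF LP no other gene of these 5 lists was called by edgeR. In 2i+LIF HP, Wnt5b, Wnt6, Ror2 and Lef1 were higher and Fzd5, Ryk, Dkk3 and Hdac1 lower. Of these, Wnt5b reached the level of the filter in 2 libraries of 2i+LIF HP and in 1 other library. Wnt5b and Lef1 thus passed mainly through 2i+LIF HP, so nothing is read from their calls. In LIF HP, Dkkl1 was higher and Fzd5, Apc, Dvl3, Tnks, Usp34, Tcf7l2 and Ctbp2 lower. In LIF LP, Fzd3, Fzd7 and Tle4 were higher and Ryk and Axin1 lower, in CH+LIF LP Fzd7 was higher and Lrp5 lower, and in CH+LIF HP Tcf7l1 was lower. Of the 25 other target genes, 8 were called higher and 1 lower in 2i+LIF HP, 5 of the 8 being T, Cdx2, Lef1, Gad1 and Msx1, and 1 to 4 were called in each of the 5 other groups.

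Some markers of other cell states were higher and others lower in 2i+LIF HP, and their part in these results was not tested. Of 8 mesendoderm markers, T and Eomes passed the filter, T only through 2i+LIF HP. T was called higher in 2i+LIF HP relative to 2i+LIF LP (1.63% of tested genes called higher), from which nothing is read. Eomes, a T-box factor named here after its values were seen, lay the other way, with 5.95 ± 2.70 CPM (SD, n = 3) in 2i+LIF HP, 18.6 ± 10.4 in 2i+LIF LP and 14.2 ± 2.66 in PO. The summed level of the 8 was 25.9 to 55.1 CPM in 2i+LIF HP, 14.5 to 35.1 in 2i+LIF LP and 3.32 to 25.9 in the other groups, and 2 of the 8 had no count in 2i+LIF HP. Of 7 trophoblast markers, Cdx2 and Krt7 were called higher in 2i+LIF HP relative to 2i+LIF LP (1.63% of tested genes called higher). Both passed the filter mainly through 2i+LIF HP, so nothing is read from this count. Their means were 12.6 and 23.5 CPM in 2i+LIF HP and 1.30 and 6.17 CPM in LIF HP. The summed level of the 7 was 76.7 to 104.7 CPM in 2i+LIF HP, 66.5 to 119 in PO, 126.7 to 161.8 in LIF HP and 28.6 to 81.3 in the other groups. Most of the LIF HP sum was Tfap2c, a trophoblast factor also named after its values were seen, with a mean of 142.1 CPM there. Sox1, a neural marker, fell from 10.6 ± 8.76 CPM (SD, n = 3) in 2i+LIF LP to 0.545 ± 0.944 in 2i+LIF HP (edgeR adjusted p = 0.0220), and Col4a1, a primitive endoderm marker, from 5.19 ± 4.14 CPM to no count (edgeR adjusted p = 0.0244). Pax6, another neural marker, was higher in 2i+LIF HP (2.34 ± 1.72 CPM, SD, n = 3) than in PO, where it had no count (edgeR adjusted p = 0.0402). Otx2, a marker of primed epiblast, had 2.04 ± 1.18 CPM in 2i+LIF HP, below 13.1 ± 10.3 in PO (edgeR adjusted p = 0.0218) and 20.1 ± 7.92 in CH+LIF HP (edgeR adjusted p = 0.0166). The summed level of 6 neural markers was 4.91 to 12.5 CPM in 2i+LIF HP and 10.5 to 71.1 in the other groups. For 9 markers of primitive endoderm it was 36.7 to 63.8 CPM against 24.7 to 82.7, for 5 of primed epiblast 18.2 to 52.5 against 20.6 to 147.3, and for 6 of fibroblasts 2.88 to 10.4 against 4.21 to 36.4. For 6 markers of 2-cell-like cells the sum was 10.5 to 13.5 CPM in 2i+LIF HP and at most 8.43 CPM in any other library, and none passed the filter. The 11 genes of naive and general pluripotency all passed. Their sum was 1620 to 2471 CPM in 2i+LIF HP, 4150 to 5146 CPM in PO, 2444 to 3838 CPM in the LP groups and 2491 to 3224 CPM in CH+LIF HP and LIF HP. From PO to 2i+LIF HP 7 of them fell (4.79% of tested genes called lower), the largest changes being in Dppa5a, Zfp42, Tbx3, Fgf4 and Nanog. Relative to PO, 3, 5, 5, 2 and 3 of the 11 fell in 2i+LIF LP, CH+LIF LP, LIF LP, CH+LIF HP and LIF HP, where 2.27%, 4.07%, 6.11%, 2.45% and 5.17% of tested genes were called lower. Pou5f1, which encodes the pluripotency factor Oct4, rose in LIF HP, from 29.2 ± 2.90 to 76.7 ± 19.6 CPM (SD, n = 3; log2 difference 1.39, SE 0.40, edgeR adjusted p = 0.0231; 7.1% called higher). From 2i+LIF LP to 2i+LIF HP 1 fell, Tbx3 (2.05% of tested genes called lower).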

How the data were processed

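Profiles of 21 mRNA sequencing libraries were used, prepared from 125 ng of total RNA per the labels' protocols. The authors deposited whole-number counts of reads per Ensembl gene, not normalized, for 31053 genes with 5 closing entries. The submitters' processing notes name bcl2fastq, STAR 2.6.0a, HTSeq and mm10; the annotation and strand setting are not given in the sources used here. Gene counts made up 47.4 to 62.0% of entries, reads outside genes 8.46 to 25.8%, ambiguous reads 0.179 to 0.683% and alignments that were not unique 20.8 to 35.4%. Only gene counts entered library sizes and tests.

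Positions came from the chromosome annotation of GENCODE M21, which held 30934 of the identifiers and lacked 119. Replicates differed by more than sampling noise (lowest chi-square per degree of freedom 4.82 in 21 pairs), so each library counted once. After filtering with filterByExpr, 10643 genes entered 1 edgeR 4.0.16 quasi-likelihood fit over all 7 groups (TMM scaling, 14 residual degrees of freedom), in R 4.3.3. P-values were adjusted by Benjamini-Hochberg over all tested genes, and called means an adjusted p under 0.05. A count of 0 was taken to allow 3 counts over the group, and intervals of ratios are exact at 95%. Alternatives used DESeq2 1.42.0, limma 3.58.1, other scaling and filters, thinned counts, a replicate block and fewer libraries. The code was tested on simulated data. The 8 genes were always named; from the Wnt lists any gene could be named with its values, from each other list up to 5 genes with an adjusted p under 0.05 and the largest changes, and for likeness the 2 genes with the highest Pearson r per gene. The genes and lists were chosen with earlier results of these data known.

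Same-numbered replicates deviated together, with all 3 correlations over 0.1, only in 2i+LIF LP against 2i+LIF PO (0.397, 0.345 and 0.179), 1 of 15 comparisons.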

Additional observations from a re-analysis of the deposited data

How the results depend on the processing

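Of the 22 calls for single genes, 7 were lost in none of the alternatives that tested them, and 4 of these 7 were tested in all. Dkk1 in 2i+LIF HP compared with CH+LIF HP and with PO did not pass the filter with thinned counts, and Sp5 in LIF LP compared with PO did not with only the groups compared. None of the 22 changed direction where tested. Counts of the 8 genes called are given where an alternative moved them by more than 1.5 times, or to or from 0, with the share of all tested genes called in parentheses. For CH+LIF LP compared with 2i+LIF LP the count of 0 (0%) became 1 with DESeq2 (0.199%), 1 with no filter (0.703%), and 2 without the 2i+LIF LP libraries with high Dusp6 (19.9%), an alternative chosen after seeing the data. In LIF LP against 2i+LIF LP the count of 2 (0.489%) became 1 with thinned counts (0.48%), the replicate block (0.601%), limma-voom (1.09%) or without both libraries that stood apart (0.538%), and 0 with only the groups compared (0.0326%). For 2i+LIF HP against 2i+LIF LP the 3 (3.67%) became 1 with thinned counts (3.76%) and with only the groups compared (0.572%). CH+LIF HP against CH+LIF LP went from 0 (0.0094%) to 1, Sp5, under 8 of 10 alternatives (0.0204 to 0.62%): DESeq2, no filter, thinned counts, only the groups compared, the replicate block, limma-voom, without both libraries that stood apart and without those with high Dusp6. LIF HP against LIF LP went from 2 (9.96%) to 1 with only the groups compared (27.8%). Against PO, 2i+LIF LP went from 1 (5.06%) to 0 with only the groups compared (0.0101%), to 0 without both libraries that stood apart (9.89%) and to 2 without those with high Dusp6 (15.4%). CH+LIF LP went from 2 (8.31%) to 0 with thinned counts (7.3%) and to 1 with only the groups compared (4.27%), limma-voom (21.8%), or both libraries that stood apart left out (13.1%). LIF LP went from 2 (12.0%) to 1 with thinned counts (11.2%) or only the groups compared (8.21%), and 2i+LIF HP from 4 (10.6%) to 2 with thinned counts (10.2%). CH+LIF HP went from 0 (5.82%) to 1 with DESeq2 (8.34%), no filter (4.89%), only the groups compared (4.2%), both libraries that stood apart left out (11.8%), or those with high Dusp6 left out (8.66%), and to 2 with limma-voom (26.8%). LIF HP went from 0 (12.3%) to 1 with limma-voom (24.7%) or without both libraries that stood apart (12.7%). Smaller moves, by 1 gene, were from 3 to 4 in CH+LIF HP relative to 2i+LIF HP (DESeq2, no filter, only the groups compared, limma-voom, either set of libraries left out) and in LIF HP against 2i+LIF HP (no filter, only the groups compared, limma-voom, both libraries that stood apart left out), and to 2 in each with thinned counts; from 3 to 4 in 2i+LIF HP against 2i+LIF LP with no filter; and against PO from 2 to 3 in LIF LP (no filter, limma-voom) and from 4 to 5 (no filter) or 3 (only the groups compared) in 2i+LIF HP. The 3 neighbouring pairs called became 5 with no filter, 1 with thinned counts, 5 with limma-voom and 6 without both libraries that stood apart.

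Leaving out 1 library at a time gave ranges of 0 to 1 (CH+LIF LP against 2i+LIF LP), 0 to 2 (LIF LP against 2i+LIF LP), 2 to 4 (CH+LIF HP against 2i+LIF HP), 1 to 3 (LIF HP against 2i+LIF HP), 1 to 3 (2i+LIF HP against 2i+LIF LP), 0 to 1 (CH+LIF HP against CH+LIF LP) and 1 to 2 (LIF HP against LIF LP). Against PO the ranges were 0 to 1 for 2i+LIF LP, 0 to 2 for CH+LIF LP, 1 to 3 for LIF LP, 2 to 4 for 2i+LIF HP and 0 to 1 for CH+LIF HP, and 2 to 4 neighbouring pairs were called. The others stayed at 0. The median of all tested genes was shifted by more than 0.1 in LIF HP against PO alone (-0.10), and with DESeq2 size factors also in CH+LIF HP against PO (-0.11). In 2i+LIF LP against PO, where same-numbered replicates deviated together, the replicate block left the count at 1. Elsewhere same-numbered replicates did not all deviate together. The labels do not say that a replicate number marks a shared day or culture. Where a group kept 1 library, it was assumed to vary like the others.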
